A study of Mus musculus with 6 samples.

Results

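Genes that mark B cells, T cells and cytotoxic lymphocytes were examined in the inguinal white adipose tissue (iWAT, the subcutaneous fat depot of the groin) of mice without the zinc transporter ZIP13. The genes were chosen by name as 13 B cell genes, 18 T cell genes and 3 cytotoxic genes. All 34 were among the 15302 genes tested, of 21368 genes that the array probes name. Each gene was read by probes whose accession is one of its RefSeq transcripts. The brightest probe stood for the gene, and for all 34 genes that probe was well above background on all 6 arrays.

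Wild-type (WT) and Zip13-KO mice, 3 arrays of each genotype, were compared at 10 weeks of age. Zip13-KO mice lack exons 6 to 8 of Zip13 (Slc39a13), which a Neo cassette replaced in R1 embryonic stem cells, so the gene is missing from every cell of the animal and not from fat alone. Both genotypes were on a C57BL/6J background after at least 7 generations of backcrossing, and both ate powdered food because the knockout mice have too few teeth. The labels name standard and high-fat feed for the study without saying which the array mice ate. They also do not say whether each array held the RNA of 1 mouse, so p-values measure the spread between these arrays.

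B cells carry an antigen receptor made of a membrane antibody and the signalling pair CD79A and CD79B, whereas T cells read antigen through a receptor joined to the CD3 chains and to the CD4 or CD8 coreceptor. Cytotoxic T cells and natural killer cells store granzymes, proteases that they release into target cells. Adipose tissue holds resident lymphocytes, and in mice the inguinal depot also surrounds a lymph node, in which B and T cells are packed. In RNA from whole tissue, fewer cells of a type and less RNA in each cell cannot be told apart.

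Slc39a13 itself checked the labels. Over 3 arrays each, its mean with SD was 10.96 ± 0.30 on the WT side and 6.63 ± 0.15 in the knockout, in log2 intensity, the scale used for every level that follows. The 6 arrays lay on 1 slide in 1 scan. Between 62.5% and 63.2% of the spots of a WT array and between 58.8% and 60.4% of those of a Zip13-KO array were well above background, and no spot was saturated. The barcode of each array ends in 2 position numbers, and arrays that share the first number are called a slide column here. Column 1 held the whole WT group together with Zip13-KO replicate 1, and the other column held the remaining knockout arrays.

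Lymphocyte genes were lower in Zip13-KO iWAT as a group, by a modest amount. The log2 fold change of Zip13-KO over WT was below 0 for 34 of 34 genes, against 50.1% of all genes tested, and its median was -0.49 against -0.00051 over all genes. A gene was called changed when the adjusted p of limma was under 0.05 and the change was over 1.5-fold (0.58 on the log2 scale). By that rule 6 of the 34 genes (17.6%) fell, against 8.38% of all genes tested, and 0 rose, against 10.3%. The 6 were the granzymes Gzmb and Gzma, the B cell genes Pax5, Cd37 and Ly6d, and Foxp3 of regulatory T cells.

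The number called depended on single arrays. It was 1 of 34 (Gzma) without Zip13-KO replicate 1, against 5.11% of all genes called lower there. It was 3 of 34 without WT replicate 3, against 9.51%, and 9 of 34 without WT replicate 1, against 7.48%. Of these shares, only that without WT replicate 1 was above the share of all genes. Within the slide column that held 4 arrays, where Zip13-KO replicate 1 is the lone knockout array, 0 lymphocyte genes and 0 of all genes passed. With the column as a block 0 lymphocyte genes passed, as did 7 of all genes, each of them lower.

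For the other 28 genes the difference was under 1.5-fold. Of these, 10 genes passed the adjusted p but not the fold, so that 16 of 34 (47.1%) passed without the fold threshold, against 15.2% of all genes. Without adjustment, 25 genes had a limma p under 0.05, but the share of all genes was not counted, so this number has no baseline. For 25 of 34 genes (73.5%) the highest Zip13-KO array was lower than the lowest WT array, against 25.9% of all genes tested. The smallest p that an exact two-sided permutation test can give with 3 arrays against 3 is 0.1, so no single value could pass by that test.

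**Figure D1:**
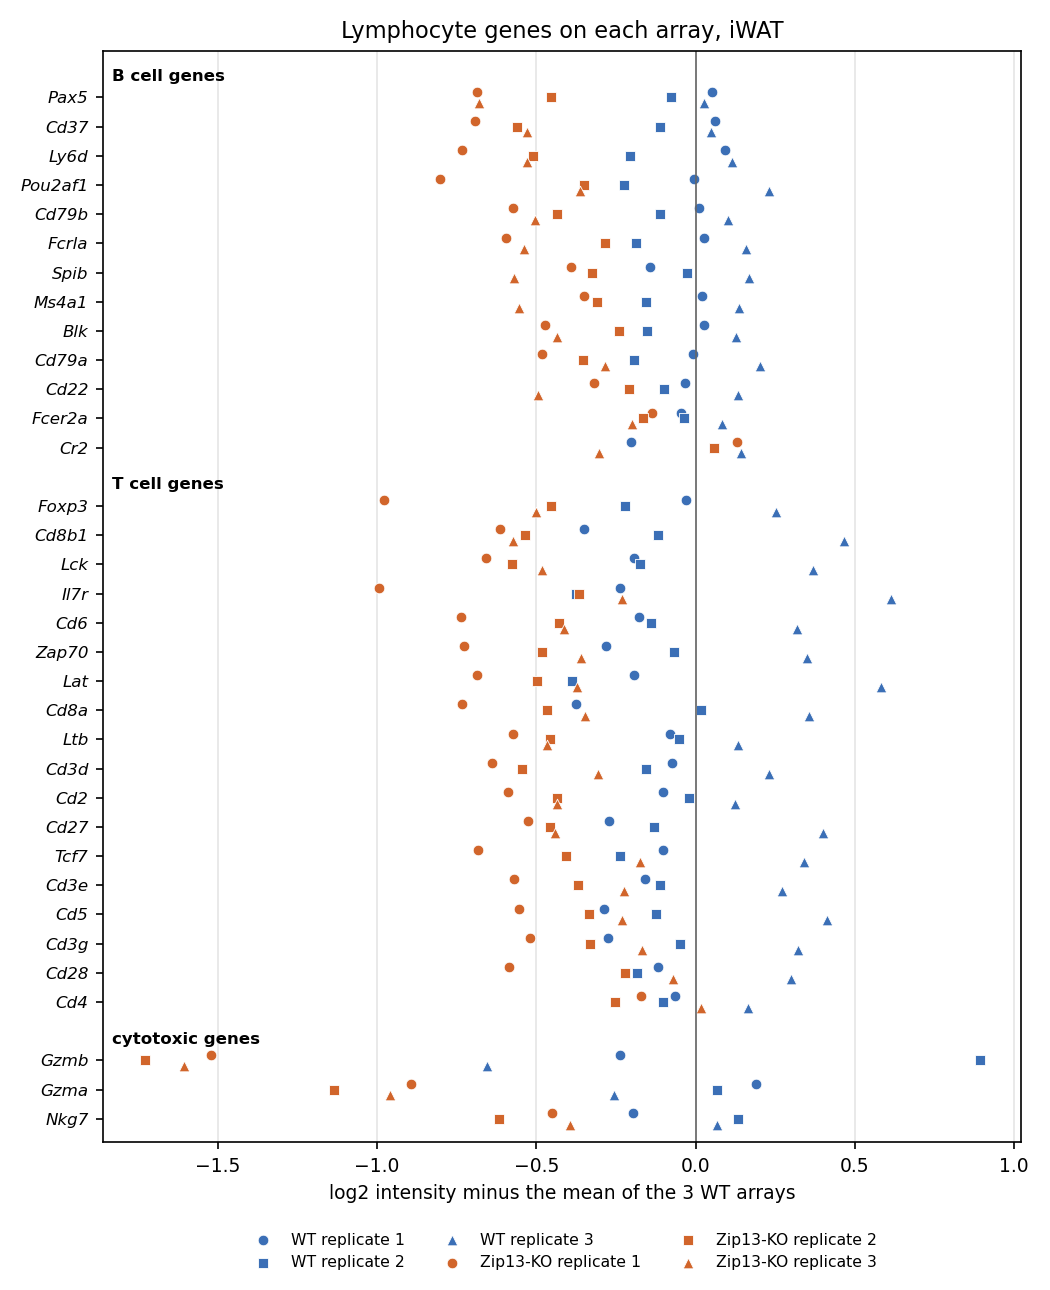
Each row is a lymphocyte gene and each symbol is 1 array, placed at its log2 intensity minus the mean of the 3 WT arrays of that gene (horizontal axis, log2 units); blue symbols are WT, orange symbols are Zip13-KO, and shapes mark the replicate. The orange symbols lie to the left of all blue symbols in 25 of 34 rows, WT replicate 3 is the blue symbol farthest to the right in each of the 18 T cell rows, and the granzymes lie farthest to the left.

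Of the 3 cytotoxic genes, 2 (66.7%) fell, against 8.38% of all genes tested. The median log2 fold change of the 3 was -0.996, set by Gzma. Gzmb encodes granzyme B, the protease that starts cell death in the target cell. Its level was 9.10, 10.23 and 8.68 on WT replicates 1, 2 and 3, and 7.82, 7.61 and 7.73 on Zip13-KO replicates 1, 2 and 3. The knockout arrays lay close together and below all WT arrays, and the WT arrays were spread, with replicate 2 the highest. The mean fell from 9.34 ± 0.80 to 7.72 ± 0.10 (SD, n = 3 each), a log2 fold change of -1.62 (SE 0.38, 95% interval -2.55 to -0.69, adjusted p = 0.0232), or 3.07-fold. Gzma encodes granzyme A, a protease of the same granules with other targets. It read 11.94, 11.81 and 11.49 on the WT arrays and 10.85, 10.61 and 10.79 on the Zip13-KO arrays. Here the genotypes were well apart and neither was widely spread. Gzma fell by 0.996 on the log2 scale (SE 0.14, 95% interval -1.33 to -0.66, adjusted p = 0.00694), to 50.1% of the WT level.

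Nkg7 encodes a granule membrane protein of natural killer and cytotoxic T cells. Its values were 12.13, 12.46 and 12.39 in WT and 11.87, 11.71 and 11.93 in Zip13-KO, with no overlap. Its log2 fold change of -0.49 (SE 0.12, adjusted p = 0.0240) passed the adjusted p but not the fold. The dimmer Nkg7 probe gave -0.77, with an adjusted p of 0.0114 over all probes. Zip13-KO replicate 2 was the lowest array for all 3 cytotoxic genes. Gzma was called without any one of the 6 arrays, whereas Gzmb was not called without any one of the 3 Zip13-KO arrays. In those 3 settings 1 of the 3 cytotoxic genes was called, against 5.11% to 6.87% of all genes. Without WT replicate 1 all 3 were called, against 7.48% of all genes.

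Since the called share was highest among the cytotoxic genes, the 250 bases upstream of their start sites are shown, from the RefSeq promoter table (GRCm38.p6), which held windows for 25 of the 34 genes. Each is written 5′ to 3′ on the strand of the gene, and capitals mark every match to TGTGGT, the core site of Runx factors, or to its reverse complement ACCACA.
Gzma, chr13:113100982-113101231, minus strand: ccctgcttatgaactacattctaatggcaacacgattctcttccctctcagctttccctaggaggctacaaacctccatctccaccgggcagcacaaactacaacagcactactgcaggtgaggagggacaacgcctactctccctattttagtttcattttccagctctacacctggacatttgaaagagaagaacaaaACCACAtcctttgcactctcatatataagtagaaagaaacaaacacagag
Gzmb, chr14:56262335-56262584, minus strand: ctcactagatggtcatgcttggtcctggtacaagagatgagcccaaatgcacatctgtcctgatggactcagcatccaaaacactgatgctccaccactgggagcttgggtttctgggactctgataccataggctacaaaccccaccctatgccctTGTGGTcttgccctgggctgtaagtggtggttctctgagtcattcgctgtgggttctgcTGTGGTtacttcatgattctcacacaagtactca
Nkg7, chr7:43436888-43437137, plus strand: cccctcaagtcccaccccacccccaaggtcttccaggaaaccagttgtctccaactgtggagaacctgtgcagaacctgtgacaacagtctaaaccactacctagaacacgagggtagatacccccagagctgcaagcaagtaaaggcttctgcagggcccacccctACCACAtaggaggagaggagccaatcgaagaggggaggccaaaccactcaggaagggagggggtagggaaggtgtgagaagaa
The match began 50 bases before the start site in Gzma and 83 bases before it in Nkg7, and the 2 matches in Gzmb began 93 and 34 bases before it. The motif was thus in 3 of 3 cytotoxic windows, in 1 of 11 B cell windows (Fcer2a) and in 2 of 18 T cell windows (Lck and Zap70), and in 14.0% of the 32851 windows of the table. It was 1 of 9 motifs searched on both strands and was singled out after the counts were seen. None of the others was in a cytotoxic window. Another of the 9, a short motif of the factor PU.1, was in 10 of 18 T cell windows and 3 of 11 B cell windows, against 23.3% of all windows. A match describes the letters and not a bound site.

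Among the B cell genes, 3 of 13 (23.1%) fell, against 8.38% of all genes tested. With the fold threshold set aside 8 (61.5%) passed the adjusted p, those 3 included, against 15.2% of all genes. In 12 of 13 (92.3%) the genotypes were apart, with all knockout arrays the lower, against 25.9% of all genes. The median level was 74.3% of WT. Pax5, the transcription factor that holds cells to the B lineage, read 6.98, 6.85 and 6.95 on the WT arrays and 6.24, 6.47 and 6.25 on the Zip13-KO arrays. It fell by 0.61 on the log2 scale (SE 0.09, adjusted p = 0.00848), more than 1.5-fold, with both genotypes tightly grouped. A second, dimmer Pax5 probe, well above background on 5 of 6 arrays, gave -0.96 with an adjusted p of 0.0612 over all probes.

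Cd37 encodes a tetraspanin of mature B cells. It gave 12.64, 12.46 and 12.63 in WT against 11.88, 12.02 and 12.05 in Zip13-KO. The decrease of 0.59 (log2, SE 0.09, adjusted p = 0.00775) was only just over the fold threshold, and its second probe gave -0.55, just under it. Ly6d, a membrane protein that marks committed B cell progenitors and is also made in some epithelia, read 13.37, 13.07 and 13.39 in WT and 12.54, 12.77 and 12.75 in Zip13-KO. Its fall of 0.59 (log2, SE 0.12, adjusted p = 0.0152) was likewise close to the threshold, with the genotypes apart on all arrays. The B cell count was 0 of 13 without Zip13-KO replicate 1, against 5.11% of all genes. It was 1 of 13 (Pax5) without WT replicate 1 or without WT replicate 3, against 7.48% and 9.51% of all genes.

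Among the chosen B cell genes, none of the B cell receptor complex or its signalling reached 1.5-fold, and Cd79b and Blk passed the adjusted p. The signalling genes Btk, Blnk and Lyn, which were not among the chosen genes, did fall by more than 1.5-fold and are given further on. Cd79b, a signalling chain of the receptor, read 14.53, 14.41 and 14.63 in WT and 13.95, 14.09 and 14.02 in Zip13-KO, or 70.5% of WT (log2 fold change -0.50, SE 0.09, adjusted p = 0.0105). Its partner Cd79a read 9.48, 9.29 and 9.69 against 9.00, 9.13 and 9.20, a fold change of -0.37 (log2, SE 0.12) that missed the threshold with an adjusted p of 0.0576. In both chains the genotypes did not overlap. Blk encodes a Src family kinase of B cells. Its log2 fold change was -0.38 (adjusted p = 0.0397), from 7.44, 7.27 and 7.55 to 6.95, 7.18 and 6.98. Cd22, an inhibitory coreceptor, gave 10.54, 10.47 and 10.70 against 10.25, 10.36 and 10.07, with an adjusted p of 0.0537. These genes, too, kept the 2 genotypes apart on every array.

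Of the surface markers of mature B cells, Ms4a1 passed the adjusted p and Cr2 and Fcer2a did not. Ms4a1 encodes CD20, a membrane protein of B cells from the pre-B stage onward. It read 13.16, 12.98 and 13.28 in WT and 12.79, 12.83 and 12.59 in Zip13-KO, with a log2 fold change of -0.41 (SE 0.11, adjusted p = 0.0361). Cr2, complement receptor 2, which is also made by the follicular dendritic cells of lymph nodes, read 11.93, 12.19 and 12.28 in WT and 12.26, 12.19 and 11.83 in Zip13-KO. Its genotypes overlapped fully, with a log2 fold change of -0.04 (SE 0.15, 95% interval -0.40 to 0.33, adjusted p = 0.860), and its second probe gave -0.0037. Cr2 was the 1 lymphocyte gene whose direction turned under other settings, to 0.046 with the 75th percentile in place of quantile normalization. Fcer2a encodes CD23, the low-affinity IgE receptor. Its values of 11.21, 11.22 and 11.34 in WT and 11.12, 11.09 and 11.06 in Zip13-KO did not overlap, yet the difference was small (log2 fold change -0.17, 95% interval -0.35 to 0.01, adjusted p = 0.126).

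A transcription factor, a coactivator and a cytoplasmic marker of B cells completed the group. Spib, an ETS factor of B cells and plasmacytoid dendritic cells, read 11.91, 12.03 and 12.22 in WT and 11.66, 11.73 and 11.48 in Zip13-KO (log2 fold change -0.43, adjusted p = 0.0323). Pou2af1 encodes the B cell coactivator of octamer-binding factors. It read 11.87, 11.65 and 12.11 against 11.08, 11.53 and 11.52, and its log2 fold change of -0.51 had an adjusted p of 0.0654. The low value was that of Zip13-KO replicate 1, and the other knockout arrays lay just below WT replicate 2. Fcrla, an intracellular Fc receptor-like protein of B cells, read 10.69, 10.47 and 10.82 against 10.06, 10.37 and 10.12 (log2 fold change -0.47, adjusted p = 0.0348).

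**Figure D2:**
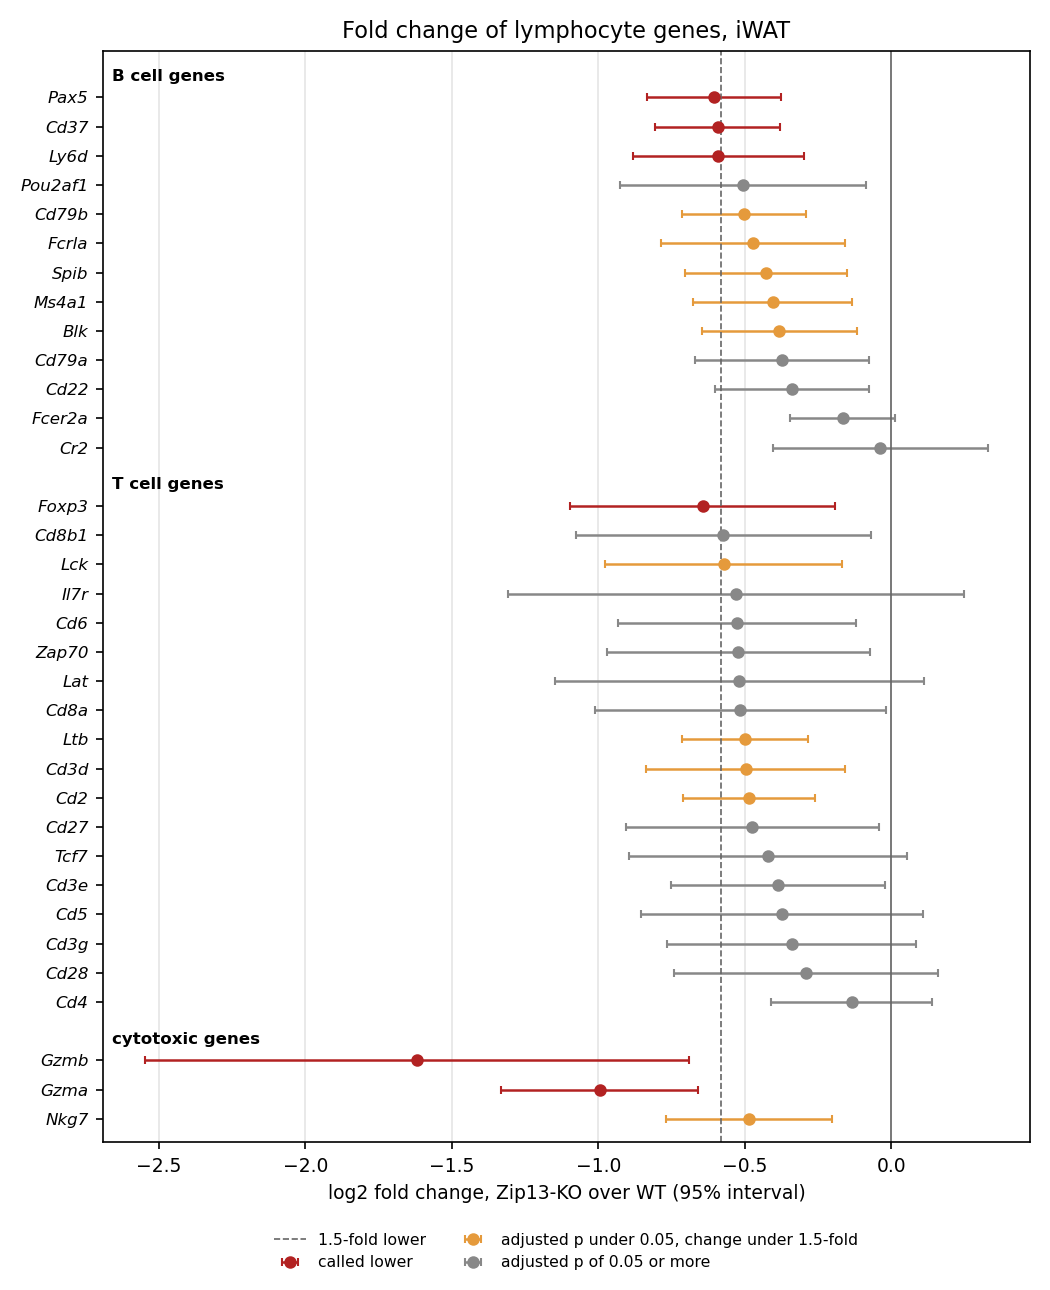
Each point is the log2 fold change of a lymphocyte gene, Zip13-KO over WT (horizontal axis), with its 95% interval from limma; red points passed the adjusted p and the 1.5-fold threshold (dashed line), orange points passed the adjusted p but not the fold and grey points did not pass the adjusted p. All 34 points lie below 0, the 6 red ones are Gzmb, Gzma, Foxp3, Pax5, Cd37 and Ly6d, and 9 further points lie between -0.50 and the dashed line.

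Among the T cell genes, 1 of 18 (5.56%) fell, against 8.38% of all genes tested, so the call rule picked no larger a share of them than of all genes. Without the fold threshold 5 of 18 (27.8%) passed, against 15.2% of all genes, and the median level was 70.8% of WT. The genotypes were apart in the same way for 10 of 18 (55.6%), against 25.9% of all genes. Foxp3, the transcription factor of regulatory T cells, was the gene called, with 7.53, 7.34 and 7.81 in WT and 6.58, 7.11 and 7.06 in Zip13-KO. Its fall was 0.64 on the log2 scale (SE 0.19, adjusted p = 0.0412), and Zip13-KO replicate 1 was the lowest array. Foxp3 kept its call in 7 of 21 other settings. No T cell gene was called when WT replicate 3 or either of Zip13-KO replicates 1 and 2 was left out, against 9.51%, 5.11% and 5.17% of all genes. Without WT replicate 1, 5 of 18 were called, against 7.48% of all genes, namely Cd8a, Cd8b1, Cd27, Lck and Zap70.

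The CD3 chains, which couple the T cell receptor to signalling and whose 3 genes are neighbours, had log2 fold changes from -0.50 to -0.34, and 1 of them passed the adjusted p. Cd3d read 12.48, 12.40 and 12.79 in WT and 11.92, 12.01 and 12.25 in Zip13-KO, a log2 fold change of -0.50 (SE 0.14, adjusted p = 0.0378) without overlap. Cd3e gave 11.88, 11.92 and 12.31 against 11.46, 11.67 and 11.81, also apart, with an adjusted p of 0.0915. Cd3g gave 10.68, 10.91 and 11.28 against 10.44, 10.63 and 10.79, so that Zip13-KO replicate 3 overlapped WT replicate 1 (log2 fold change -0.34, adjusted p = 0.173). In all 3 chains Zip13-KO replicate 1 was the lowest of the knockout arrays and WT replicate 3 the highest of the 6.

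The coreceptors separate helper from cytotoxic T cells. Cd4, the helper coreceptor, which some macrophages and dendritic cells also carry, read 11.13, 11.09 and 11.36 in WT and 11.02, 10.94 and 11.21 in Zip13-KO. That overlap left a log2 fold change of -0.14 (95% interval -0.41 to 0.14, adjusted p = 0.378), and the dimmer Cd4 probe gave -0.36. Cd8a and Cd8b1 encode the chains of the cytotoxic coreceptor and are neighbours in the genome. Cd8b1 read 9.83, 10.06 and 10.64 against 9.56, 9.64 and 9.60, apart by genotype, with a log2 fold change of -0.57 (SE 0.21) and an adjusted p of 0.0757. Cd8a read 9.17, 9.56 and 9.90 against 8.81, 9.08 and 9.20, with an adjusted p of 0.0965 and a second probe at -0.27. For both, WT replicate 3 stood above the other arrays. Whether the CD8 genes differed from Cd4 in their response was not tested.

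Kinases and adaptors of the T cell receptor formed the next set. Lck, the kinase that phosphorylates the CD3 chains, read 13.09, 13.11 and 13.65 in WT and 12.63, 12.71 and 12.80 in Zip13-KO. Its log2 fold change of -0.57 (SE 0.17, adjusted p = 0.0422) lay just inside the fold threshold. Zap70, the kinase that docks on those chains, read 11.61, 11.83 and 12.24 against 11.17, 11.41 and 11.53 (log2 fold change -0.52, adjusted p = 0.0712). Neither kinase overlapped between genotypes. Lat encodes the membrane adaptor that Zap70 phosphorylates. It gave 10.72, 10.52 and 11.50 against 10.23, 10.41 and 10.54, and the high WT replicate 3 made its error wide (SE 0.26, adjusted p = 0.163).

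Adhesion and costimulatory receptors of T cells ranged from a log2 fold change of -0.53 to one of -0.29. Cd2, an adhesion receptor of T and natural killer cells, read 12.67, 12.75 and 12.89 in WT and 12.18, 12.34 and 12.33 in Zip13-KO, a log2 fold change of -0.49 (SE 0.09, adjusted p = 0.0132). Cd6, a scavenger receptor-like regulator of T cell signalling, read 11.50, 11.54 and 12.00 against 10.94, 11.25 and 11.26 (log2 fold change -0.53, adjusted p = 0.0535). Both were apart by genotype, and the error of Cd2 was the smaller. Cd5, the neighbour of Cd6 in the genome and a related inhibitory receptor, read 11.48, 11.64 and 12.18 against 11.22, 11.43 and 11.54 and overlapped (adjusted p = 0.184). Cd27, a costimulatory receptor of the TNF receptor family, read 7.97, 8.11 and 8.64 against 7.72, 7.79 and 7.80, with no overlap and an adjusted p of 0.0843. The costimulatory receptor Cd28 read 9.56, 9.50 and 9.98 against 9.10, 9.46 and 9.61 and had a log2 fold change of -0.29 (adjusted p = 0.255).

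Cytokine and differentiation genes closed the T cell group. Ltb encodes lymphotoxin beta, a cytokine that both B and T cells make and that lymph node architecture depends on. It read 14.36, 14.38 and 14.57 in WT and 13.86, 13.98 and 13.97 in Zip13-KO, a log2 fold change of -0.50 (SE 0.09, adjusted p = 0.0112), with both genotypes tightly grouped and apart. Il7r, the interleukin 7 receptor chain of naive and memory T cells, read 10.74, 10.61 and 11.60 against 9.99, 10.62 and 10.75. It had the widest error of the T cell genes (log2 fold change -0.53, SE 0.32, 95% interval -1.31 to 0.25, adjusted p = 0.235), with WT replicate 3 high and Zip13-KO replicate 1 low. Tcf7 encodes TCF1, a factor of T cell development and memory. Its values of 10.09, 9.95 and 10.53 in WT and 9.50, 9.78 and 10.01 in Zip13-KO overlapped (log2 fold change -0.42, adjusted p = 0.138).

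Array by array, the groups differed in which samples stood high or low. The median deviation of the T cell genes from the WT mean was -0.19, -0.13 and 0.33 on WT replicates 1, 2 and 3, and -0.63, -0.44 and -0.35 on Zip13-KO replicates 1, 2 and 3 (log2). For the B cell genes it was 0.01, -0.11 and 0.13, and then -0.48, -0.33 and -0.50. The cytotoxic genes gave -0.20, 0.13 and -0.26, and then -0.89, -1.13 and -0.96. In each group the 3 knockout medians lay below the 3 WT medians.

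WT replicate 3 was the highest WT array for 18 of 18 T cell genes and 11 of 13 B cell genes, but for none of the cytotoxic genes. Zip13-KO replicate 1 was the lowest knockout array for 17 of 18 T cell genes and 8 of 13 B cell genes. Among the knockout arrays replicate 3 was highest for 14 of 18 T cell genes, whereas replicate 2 was highest for 9 of 13 B cell genes. The median range among WT arrays was 0.57 for the T cell genes and 0.29 for the B cell genes (log2), against 0.30 over all genes tested. The medians of B and T cell genes, set against each other within an array, differed by 0.20, 0.02 and -0.20 in WT and by 0.14, 0.12 and -0.15 in Zip13-KO, so the balance of the groups overlapped between genotypes. The cytotoxic genes, set against the T cell genes in the same way, differed from them by -0.01, 0.26 and -0.59 in WT and by -0.27, -0.69 and -0.61 in Zip13-KO, which overlapped as well.

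Each knockout array on its own placed most lymphocyte genes below all 3 WT arrays. That held for 33 of 34 genes on Zip13-KO replicate 1, 32 on replicate 2 and 26 on replicate 3, against 35.1%, 37.7% and 35.2% of all genes. On replicate 3 the share was 10 of 18 for the T cell genes and 13 of 13 for the B cell genes. Against the WT arrays of its own slide column, replicate 1 gave median log2 fold changes of -0.48 for the B cell genes, -0.63 for the T cell genes and -0.89 for the cytotoxic genes, with no gene called.

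**Figure D3:**
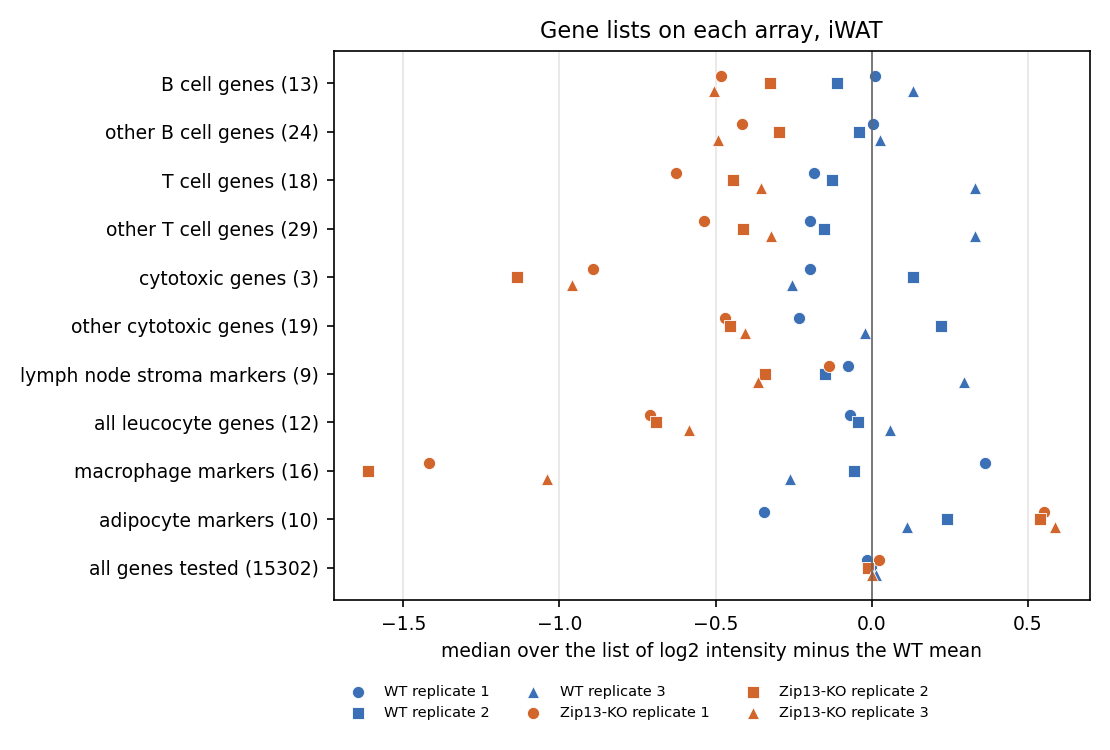
Each row is a list of genes, with the number tested in brackets, and each symbol is the median over that list of log2 intensity minus the WT mean on 1 array (horizontal axis, log2 units); blue is WT, orange is Zip13-KO and shapes mark the replicate. The 3 groups of lymphocyte genes lie to the left in Zip13-KO, the macrophage markers lie farther left, the adipocyte markers lie to the right, and the lymph node stroma markers overlap between genotypes.

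Most further genes of the same cell types had log2 fold changes below 0. Of 24 other B cell genes tested, 5 (20.8%) fell, against 8.38% of all genes, and 0 rose, with a median log2 fold change of -0.38. Those that fell were Cd180 (-1.02), a Toll-like receptor homologue, the kinases Btk (-0.75) and Lyn (-0.66), the adaptor Blnk (-0.70) and Ciita (-0.59), the activator of MHC class II genes. Btk, Lyn, Cd180 and Ciita are also made by myeloid cells. Of 29 other T cell genes, 4 (13.8%) fell and 1 rose, with a median of -0.44. Among those that fell were Il2rb (-0.82), an interleukin 2 receptor chain, Thy1 (-0.77), which stromal cells also carry, and Fyn (-0.67), a widely made kinase.

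Of 19 other cytotoxic and natural killer genes, 2 (10.5%) fell, a share near the 8.38% of all genes, and 0 rose, with a median log2 fold change of -0.42. Eomes, a T-box factor of natural killer and memory CD8 T cells, read 6.86, 7.13 and 6.57 in WT and 5.68, 5.37 and 5.46 in Zip13-KO, a fall of 1.35 (log2, SE 0.16, adjusted p = 0.00554). The genotypes did not overlap. Il18rap, a chain of the interleukin 18 receptor, fell by 0.80 (log2, adjusted p = 0.0135). Prf1, the pore-forming partner of the granzymes, had a log2 fold change of -0.42 (adjusted p = 0.0409), and Ncr1, a receptor of natural killer cells, one of -0.28 (adjusted p = 0.324). Gzmc, a further granzyme, read 5.52, 5.90 and 5.30 in WT and 5.91, 7.04 and 6.77 in Zip13-KO, higher on every knockout array but with an adjusted p of 0.0525. Klrg1, an inhibitory receptor of the same cells, read 7.23, 9.52 and 7.51 in WT and 7.08, 7.06 and 6.87 in Zip13-KO (log2 fold change -1.08, adjusted p = 0.194), with WT replicate 2 high as it was for Gzmb.

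Markers of other cells differed between the genotypes as well. Of 12 genes that all leucocytes make, 10 fell, against 8.38% of all genes. The 12 genes ranged from Laptm5 at -1.13 to Ikzf1, which was not called, at -0.44 (log2 fold change). Their summed intensity ranged from 97.6% to 103% of the WT mean in WT and from 63.4% to 65.6% in Zip13-KO. Of 16 macrophage markers 14 fell, with a median of -1.41, and their sum ranged from 78.2% to 129% in WT and from 35.9% to 48.4% in Zip13-KO. The sum of the 34 lymphocyte genes ranged from 93.0% to 113% in WT and from 67.5% to 73.4% in Zip13-KO. Adipocyte markers were higher, with 3 of 10 called (Pparg, Plin1 and Lipe), against 10.3% of all genes. Their sum ranged from 82.1% to 113% in WT and from 132% to 138% in Zip13-KO.

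Lymph node tissue was looked for through genes of its stroma and vessels, of which 9 of 11 were tested. Their summed intensity ranged from 81.4% to 122% of the WT mean in WT and from 64.1% to 72.7% in Zip13-KO. Of the 9, 1 (11.1%) fell, against 8.38% of all genes. Ccl19, the chemokine of the T cell zone, fell by 0.76 (log2, adjusted p = 0.0137). Cxcl13, the chemokine of B cell follicles, read 12.96, 12.38 and 13.11 in WT and 12.01, 12.36 and 12.19 in Zip13-KO (adjusted p = 0.0591). Glycam1, a mucin-like protein of the high endothelial venules of lymph nodes, read 12.45, 12.14 and 13.27 against 12.15, 12.17 and 12.19, with overlap. All 3 of these markers were well above background on every array. The median log2 fold change of the list was -0.30, and its other 6 genes were not called. Madcam1, which encodes the mucosal addressin, had a log2 fold change of 0.15 (adjusted p = 0.616). Il7, the T cell survival cytokine of lymph node stroma, had one of 0.06 (adjusted p = 0.690). Ltbr, the lymphotoxin beta receptor, had one of -0.30 (adjusted p = 0.466). WT replicate 3, the highest WT array for all T cell genes, was the highest of all arrays for Ccl19, Cxcl13, Glycam1, Madcam1, Chst4 and Tnfsf11, but not for Il7, Ltbr and Tnfsf13b. The part of the macrophage, adipocyte and lymph node levels in the lymphocyte result was not tested.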

How the data were processed

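RNA from iWAT of 3 WT and 3 Zip13-KO samples was measured on Agilent 1-colour mouse arrays. In the scanner files that the authors deposited (Feature Extraction 11.5.1.1), each spot has a processed signal in intensity units, corrected for background and not normalized between arrays. A table of log2 values, also deposited by the authors and already quantile normalized, served as an alternative.

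Control and outlier spots were removed, log2 of the processed signal was averaged over the spots of a probe, and quantile normalization was applied across arrays. Probes were named by RefSeq accession (GRCm38.p6, versions removed). Probes had to be marked by the scanner software as well above background throughout 1 genotype or the other (3 of 3 arrays), and the brightest remaining probe stood for a gene. Genotypes were compared in R 4.3.3 by lmFit and eBayes of limma 3.58.1 over all 15302 genes, with Benjamini-Hochberg adjustment, after a test on simulated data. Intervals are those of limma. Summed levels are sums of linear intensity over the genes of a list, so bright probes weigh most in them. Each of the 34 genes is named, with genes of large or small change and called genes of the other lists. Some genes of those lists are counted but not reported by name here. The 34 genes, the marker lists and the motifs were chosen with earlier results of these data known, and other marker genes (Cxcl13, Glycam1, Prf1, Klrg1, Ncr1) were picked by role or after their values were seen. The number of arrays limits the precision. In all, 21 other settings were tried. Levels of different probes were not compared, except in the summed levels and in the choice of a brightest probe. Genome positions are those of the RefSeq promoter windows only, since the array design was annotated on another build.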

Additional observations from a re-analysis of the deposited data

How the results depend on the processing

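No lymphocyte gene was called higher under any of the 21 other settings, and 33 of 34 kept a log2 fold change below 0 in all of them. The exception was Cr2, at 0.046 with the 75th percentile in place of quantile normalization, 0.13 with the slide column as a block and 0.13 within slide column 1, and between -0.14 and 0.094 with 1 array left out. Some settings, such as other p-value or fold thresholds, a t-test or the replicate number as a block, leave the fold changes as they were. In those no direction could turn. The column block and the fit within column 1 give the same fold changes as each other. The median fold changes of the B cell, T cell and cytotoxic genes also kept their direction in the settings that could change them. The counts called lower, 6 in all (3 B cell, 1 T cell and 2 cytotoxic), moved with the processing. The 75th percentile left 1 B cell gene, against 7.92% of all genes called lower at that setting. No T cell gene was called with normexp (5.94% of all genes lower) or no background correction (6.60%), the deposited table (6.57%) or no filter on dim probes (5.05%). Nor was one called by a t-test after adjustment, which left 1 cytotoxic gene, against 4.71% of all genes. That t-test is only a part of the study's method, which combined it with a median-ratio test that was not run here. Without the fold threshold, 16 of 34 genes passed (8, 5 and 3), against 15.2% of all genes. At an adjusted p under 0.01 it was 3 of 34, with 0 T cell genes and 1 cytotoxic gene, against 3.30% of all genes. With the replicate number as a block, 3 of 34 genes (0 T cell, 1 cytotoxic) were called, against 6.87% of all genes. Deviations of same-numbered arrays had r of -0.02, 0.04 and -0.08. With 3 arrays of each genotype these values can neither show nor exclude a pairing by number. The labels do not say whether equal numbers mark pairs. With the slide column as a block or within column 1, 0 B cell, 0 T cell and 0 cytotoxic genes passed. With 1 array left out, the count ranged from 1 to 9 in all, from 0 to 3 for B cell, from 0 to 5 for T cell and from 1 to 3 for cytotoxic genes. The share of all genes called lower then ranged from 5.11% to 9.51%. The cause of these changes was not tested. The filter on dim probes left out Fkbp11, Cd40lg and Fcamr, among others, of the marker lists.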

Other observations

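Genes of plasma cells, the antibody-secreting end stage of B cells, varied more between arrays than the B cell genes did. Of 9 tested, 1 (11.1%) fell, against 8.38% of all genes, with a median log2 fold change of -0.41. That gene was Sdc1, which encodes syndecan 1 and is also made by epithelia and macrophages. It read 9.18, 8.85 and 8.36 in WT and 7.42, 7.37 and 7.68 in Zip13-KO, a fall of 1.30 (log2, SE 0.22, adjusted p = 0.00992). Jchain, the joining chain of secreted antibodies, read 11.77, 12.66 and 13.05 in WT and 11.51, 11.81 and 12.21 in Zip13-KO, with overlap and an adjusted p of 0.194. Mzb1, an antibody-folding chaperone of the endoplasmic reticulum, read 10.25, 10.44 and 10.94 against 9.76, 10.06 and 9.99 (adjusted p = 0.0538). The summed intensity of the 9 genes overlapped between genotypes, at 86.5% to 109% of the WT mean in WT and 84.6% to 110% in Zip13-KO. That sum weighs bright probes most, and the brightest was that of Xbp1, with means of 14.49 in WT and 14.54 in Zip13-KO. Taken gene by gene, 7 of the 9 had a log2 fold change below 0. Skeletal muscle markers stood out on 1 array: their median deviation from the WT mean was 2.05 (log2) on Zip13-KO replicate 3 and between -0.77 and 0.53 on the other 5 arrays.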
